A study of Mus musculus with 12 samples.

Results

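Expression of 10 genes of the cytotoxic granule was followed across kidney CD4 T cells: the granzymes Gzma, Gzmb and Gzmk, the pore former Prf1, the granule membrane protein Nkg7, the cysteine protease Ctsw, the cystatin Cst7, the death ligand Fasl, and the protease inhibitors Serpinb9 and Serpinb6b. They were taken by symbol from the 52632 genes of the deposited table, and all 10 were found and passed the filter on low values. They were chosen by name with earlier results of these data known, namely their FPKM in all 4 groups, and no threshold was used. So every difference below describes these genes, and an adjusted p gives a gene's place in the test of the whole table and no independent support. RNA was sequenced from CD4 T cells that had been flow sorted out of mouse kidneys, in 12 libraries that form 4 groups of 3.

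Mice of the wild-type (WT) groups were C57BL6/J animals bought from a supplier, and the mice of the CD4 Keap1 KO groups (KO) were on the same background and bred in house, so genotype and source of the animals cannot be told apart. In the groups with ischemia reperfusion injury (IRI), both renal pedicles were clamped for 30 minutes and the kidneys were taken 24 hours later. The control groups, 1 for each genotype, are separate mice, and the labels do not say whether they had sham surgery. Neither the promoter that drives the deletion of Keap1 nor its exons are named, and whether each library comes from its own animal is not stated, so a p-value here sets a difference against the spread among libraries that may be technical. Keap1 encodes the adaptor that sends the transcription factor NRF2 to degradation, and its loss is known to raise the antioxidant genes that NRF2 drives.

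Cytotoxic lymphocytes kill target cells by releasing granules that hold perforin, which opens pores in the target membrane, and granzymes, serine proteases that enter through them and cleave proteins of the cell death machinery. Granzymes are matured by cathepsins, which cystatins in turn hold in check. The cell that carries granules protects itself with serpins that trap granzyme molecules that leak into its cytosol. Such genes are best known from CD8 T cells and NK cells, and part of the CD4 T cells that live in tissues or respond to infection also express them.

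The promoter stretches of 5 of these genes are shown because the data divide them: Gzmb and Gzmk had larger differences between genotypes than between control and IRI libraries, Gzma and Nkg7 the reverse, and Cst7 differed in both ways. Each is RefSeq sequence of GRCm38.p6, written 5′ to 3′ on the gene's strand, from the 250 bases before the start that RefSeq annotates and without bases that the gene annotation places in an exon of the gene. Capitals mark matches, on either strand, to GTGTGA (a half-site of T-box factors such as T-bet, the product of Tbx21), TGTGGT (RUNX factors) or TGANTCA (AP-1). The stretches lie at chr14:56262335-56262584 on the minus strand for Gzmb, chr13:113180966-113181215 on the minus strand for Gzmk, chr13:113100982-113101231 on the minus strand for Gzma, chr7:43436888-43437072 on the plus strand for Nkg7, where 185 bases remain, and chr2:150570165-150570414 on the plus strand for Cst7.
Gzmb: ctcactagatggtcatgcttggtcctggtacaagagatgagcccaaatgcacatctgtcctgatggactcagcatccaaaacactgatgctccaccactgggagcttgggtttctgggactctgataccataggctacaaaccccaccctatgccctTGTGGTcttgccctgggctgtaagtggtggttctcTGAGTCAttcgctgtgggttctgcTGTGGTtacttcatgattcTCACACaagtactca
Gzmk: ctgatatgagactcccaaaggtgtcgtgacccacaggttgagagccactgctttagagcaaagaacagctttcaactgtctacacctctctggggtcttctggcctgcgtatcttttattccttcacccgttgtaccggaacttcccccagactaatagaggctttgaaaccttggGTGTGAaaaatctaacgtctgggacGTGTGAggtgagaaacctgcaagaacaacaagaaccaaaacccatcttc
Gzma: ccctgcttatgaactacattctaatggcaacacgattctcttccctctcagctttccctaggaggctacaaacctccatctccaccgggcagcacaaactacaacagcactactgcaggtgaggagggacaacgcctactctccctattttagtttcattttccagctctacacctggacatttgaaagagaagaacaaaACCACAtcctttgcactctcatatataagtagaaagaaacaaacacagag
Nkg7: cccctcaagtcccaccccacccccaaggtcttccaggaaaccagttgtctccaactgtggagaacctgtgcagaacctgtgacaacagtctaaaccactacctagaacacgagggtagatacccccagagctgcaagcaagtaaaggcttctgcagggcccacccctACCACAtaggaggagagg
Cst7: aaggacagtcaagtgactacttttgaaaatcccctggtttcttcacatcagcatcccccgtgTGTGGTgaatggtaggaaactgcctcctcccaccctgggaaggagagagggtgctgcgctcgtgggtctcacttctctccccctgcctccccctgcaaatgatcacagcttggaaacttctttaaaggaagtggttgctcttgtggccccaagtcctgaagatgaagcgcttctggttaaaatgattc

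Of the 10 genes, 9 have a promoter in the RefSeq table and Ctsw has none. The T-box half-site stands in 3 of the 9 windows of 250 bases, those of Gzmb, Gzmk with 2 copies, and Nkg7, whose copy lies in an annotated exon and so outside the stretch shown. That letter string occurs in 12.3% of the 32851 promoter windows of the table. The RUNX string is in 5 of the 9, those of Gzma, Gzmb with 2 copies, Prf1, Nkg7 and Cst7, against 14% of all windows. The AP-1 string, which reads the same on both strands and was found in 6.75% of windows, is present for Gzmb. A core of the antioxidant response element that NRF2 binds, TGACNNNGC, is in 10.2% of windows and was found for Prf1. No other member window holds it, and a match or its absence says only which letters stand in these windows.

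The genes lie on 7 chromosomes of GRCm38, and 4 of them on chromosome 13, in 2 pairs. The spans that follow are those of GENCODE, whose starts can differ from RefSeq's: the promoter stretch shown for Gzmk lies inside its longer GENCODE span. Gzma spans chromosome 13, 113093825 to 113100981, and Gzmk lies on the same strand at 113171608 to 113225908. Serpinb6b spans 32965209 to 32979067 of that chromosome and Serpinb9, 33003250 to 33017957, both on the plus strand. Gzmb is on chromosome 14 at 56258838 to 56262260. Prf1 is on chromosome 10 at 61297833 to 61304680, Nkg7 on chromosome 7 at 43437073 to 43438249, Ctsw on chromosome 19 at 5465043 to 5468507, Cst7 on chromosome 2 at 150570415 to 150578944, and Fasl on chromosome 1 at 161780689 to 161788495. Gzmk overlaps Esm1 and Ctsw overlaps Fibp on the other strand, with 0 and 9 shared exon bases, and the strand setting of the quantification is not given in the sources used here. All are protein-coding genes, and their values cover the whole gene.

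Expression is in FPKM, fragments scaled to transcript length and to library total, which compares levels between genes but keeps no counts, so the depth behind a value is unknown. Keap1 read 8.50, 9.00 and 9.87 FPKM in controls and 8.80, 6.31 and 6.03 after IRI in WT, and 6.61, 5.75 and 7.77 in controls and 6.28, 5.95 and 4.59 after IRI in KO, so it was present in every KO library, and the deleted part of the gene is not named. Nqo1, a classical NRF2 target, was at 3.38 to 7.75 FPKM in the 6 KO libraries and at 0 to 0.543 in the 6 WT libraries. Summed over all genes, the libraries held between 739969 and 2089551 FPKM. The median tested gene was higher in KO than in WT by a log2 of 0.299 in controls and 0.255 after IRI as deposited. Values were therefore also divided by a median ratio per library (called rescaled), after which those shifts were 0.0142 and 0.0190. KO control 1, WT control 3 and WT IRI 3 stood apart in an earlier look at these data. With library weights estimated by limma, the lowest weights were 0.335 for WT IRI 3, 0.339 for KO control 2, 0.431 for WT control 3 and 0.584 for KO control 1, and counts without the first-named 3 are given beside those with all 12.

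The sorted cells carried T cell transcripts in all 12 libraries. The 8 markers of CD4 T cells summed to 754 to 829 FPKM in controls and 345 to 435 after IRI in WT, and 1009 to 1457 in controls and 707 to 945 after IRI in KO. Cd8a and Cd8b1 together were at 7.60 to 7.97, 2.89 to 5.13, 12.2 to 19.4 and 4.41 to 5.76 FPKM in the same order. The T cell markers were thus lower after IRI, like most of the granule genes, and their part in the differences that follow was not tested. In RNA from a bulk of sorted cells, fewer cells that express a gene and less RNA per cell cannot be told apart.

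**Figure D1:**
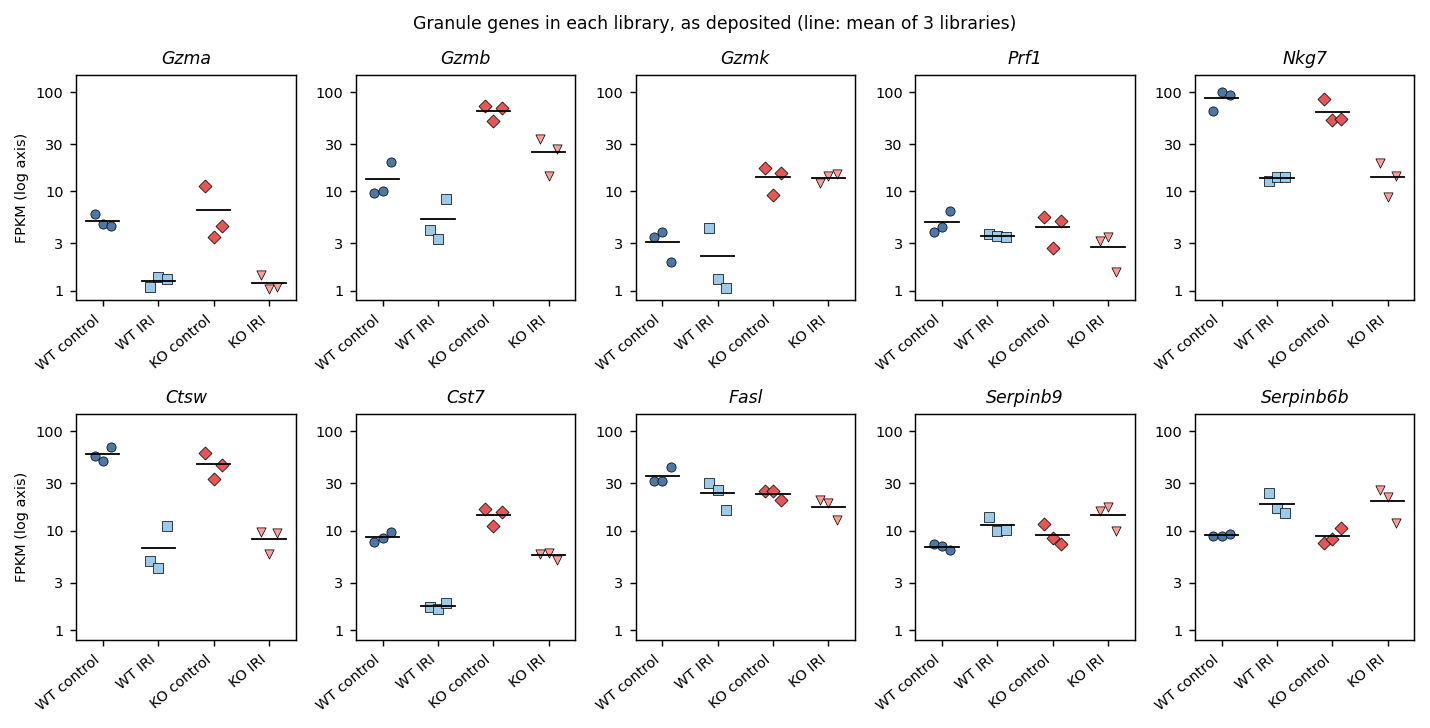
FPKM of the 10 genes (1 panel each, log axis) in the 3 libraries of each of the 4 groups, with points for libraries and a line for the group mean. Nkg7 and Ctsw fall in 2 levels by injury, with all control libraries at 33.1 FPKM or more and all IRI libraries at 19.1 or less, while Gzmk, and Gzmb within each condition, stand higher in all KO libraries than in WT.

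Gzmb, a granzyme that cleaves caspases, had the highest mean of the 3 granzymes in every group. In WT it read 9.66, 10.1 and 19.9 FPKM in controls and 4.12, 3.29 and 8.30 after IRI. In KO it read 72.1, 51.4 and 69.2 FPKM in controls and 33.8, 14.5 and 26.9 after IRI. Every KO control was above every WT control, every KO IRI library was above every WT IRI library, and in both genotypes all control libraries were above all IRI libraries. The KO mean was 4.86 times the WT mean in controls and 4.78 times after IRI, or 3.79 and 3.63 times after rescaling. On the log2(FPKM + 1) scale used for testing, the difference between KO and WT was 2.26 ± 0.39 in controls (SE, n = 3 per group, limma adjusted p = 0.109) and 2.07 ± 0.39 after IRI (adjusted p = 0.0829). Neither passed the threshold of 0.05. Averaged over condition, Gzmb rose in KO by 2.16 ± 0.27 (adjusted p = 0.00891), or by 1.86 ± 0.29 after rescaling (adjusted p = 0.0297). With libraries set to a common sum this call was lost (adjusted p = 0.109). Its mean was 2.52-fold lower after IRI in WT and 2.56-fold lower in KO, with log2 differences of −1.20 ± 0.39 (adjusted p = 0.123) and −1.39 ± 0.39 (adjusted p = 0.132) that passed in neither genotype alone. Averaged over genotype Gzmb fell by 1.29 ± 0.27 (adjusted p = 0.0151), a call that was also lost with a common sum (adjusted p = 0.0649).

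Gzmk, a granzyme with trypsin-like activity that is typical of memory-type T cells, differed between genotypes, while its control and IRI libraries overlapped. In WT it read 3.46, 3.89 and 1.93 FPKM in controls and 4.26, 1.33 and 1.07 after IRI. In KO it read 17.3, 9.20 and 15.5 FPKM in controls and 12.1, 14.2 and 14.9 after IRI. The 6 KO libraries were all above the 6 WT libraries. The KO mean was 4.53 times the WT mean in controls and 6.19 times after IRI. The log2 difference was 1.86 ± 0.36 in controls (adjusted p = 0.131) and 2.32 ± 0.36 after IRI (adjusted p = 0.0592), without passing in either. Averaged over condition Gzmk rose in KO by 2.09 ± 0.26 (adjusted p = 0.00778), or by 1.83 ± 0.23 rescaled (adjusted p = 0.0116), but without KO control 1, WT control 3 and WT IRI 3 this call was lost (adjusted p = 0.0827). Its log2 difference between IRI and control was −0.45 ± 0.36 in WT (adjusted p = 0.590) and 0.01 ± 0.36 in KO. Esm1, which overlaps Gzmk on the other strand, was also higher in KO, at 0.131 to 1.63 FPKM in the WT libraries and 1.38 to 6.22 in the KO libraries. No exon base is shared by both genes, and the part of Esm1 reads in the Gzmk value was not tested.

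Gzma, the granzyme of tryptase type that is known to cleave gasdermin B in human cells, showed the other pattern. In WT it read 5.95, 4.69 and 4.46 FPKM in controls and 1.09, 1.37 and 1.30 after IRI. In KO it read 11.4, 3.45 and 4.48 FPKM in controls and 1.45, 1.04 and 1.09 after IRI. All 6 IRI libraries were at 1.45 FPKM or less and all 6 controls at 3.45 or more, while the genotypes overlapped in both conditions. Gzma fell after IRI in WT by 1.42 ± 0.33 on the log2 scale (adjusted p = 0.0403), a 4.02-fold lower mean. This call was lost in 10 of the 12 fits that left out 1 library, with adjusted p-values up to 0.134, and also with a common sum, a pseudocount of 5 or no filter on low values. In KO the mean was 5.41-fold lower and the log2 difference, −1.62 ± 0.33, did not pass as deposited (adjusted p = 0.0512), whereas it passed after rescaling (−1.49, adjusted p = 0.0274). Averaged over genotype Gzma fell by 1.52 ± 0.23 (adjusted p = 0.00304).

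The 3 granzymes together summed to 21.3 ± 4.28 FPKM in controls and 8.71 ± 2.43 after IRI in WT, and 84.7 ± 18.8 in controls and 39.96 ± 9.18 after IRI in KO (SD, n = 3). Their make-up differed with the group, which does not depend on the scaling of a library. Gzma was 24.4% ± 7.15 of the sum in WT control and 7.24% ± 3.53 in KO control, and 15.5% ± 6.38 against 3.03% ± 0.480 after IRI. Gzmk was 15.5% ± 7.15 of the sum in controls and 25.8% ± 17.8 after IRI in WT, and 16.3% ± 1.68 in controls and 36.1% ± 11.1 after IRI in KO. Gzmb held 48.7% or more of the sum in every library but WT IRI 1, where Gzmk and Gzmb were at 45.1% and 43.5%. These shares were computed after the values of the genes were seen.

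**Figure D2:**
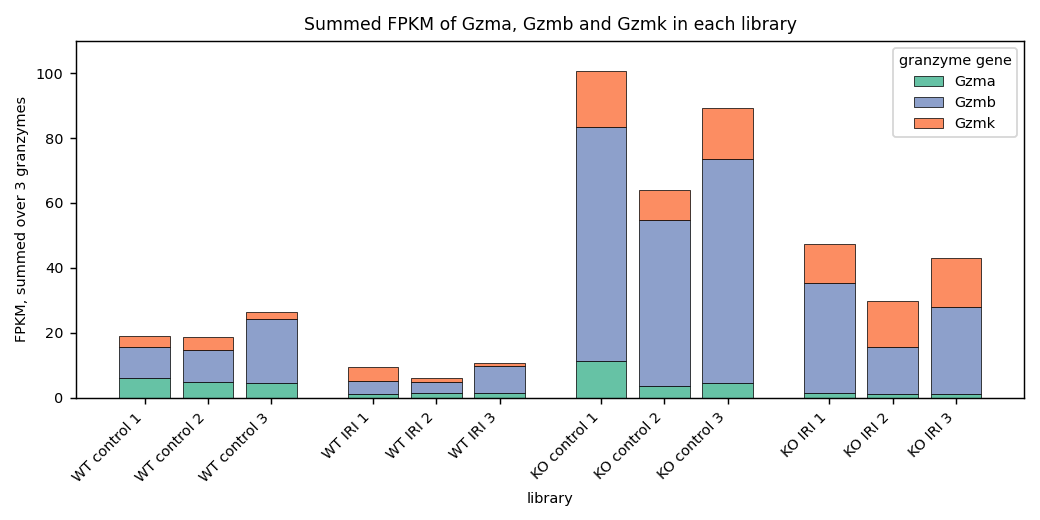
Summed FPKM of Gzma, Gzmb and Gzmk in each of the 12 libraries, as stacked bars from 0. The KO bars reach 64.0 to 100.8 in controls and 29.7 to 47.3 after IRI, against 18.7 to 26.3 and 5.98 to 10.7 in WT.

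Prf1, which encodes perforin, had smaller differences than Gzma after IRI and than Gzmb and Gzmk between genotypes. It read 3.88, 4.40 and 6.33 FPKM in controls and 3.74, 3.52 and 3.51 after IRI in WT, and 5.56, 2.68 and 5.07 in controls and 3.18, 3.46 and 1.56 after IRI in KO. As deposited, the WT controls were all above the WT IRI libraries and these above the KO IRI libraries, by narrow margins. The other groups overlapped. No difference passed: IRI against control was −0.33 ± 0.28 in WT (adjusted p = 0.612) and −0.54 ± 0.28 in KO (adjusted p = 0.432). KO against WT was −0.13 in controls and −0.34 after IRI, both with an SE of 0.28. The ratio of Gzmb to Prf1 within a library, chosen after the values were seen, was 2.64 ± 0.445 in controls and 1.47 ± 0.785 after IRI in WT, and 15.3 ± 3.42 in controls and 10.7 ± 6.53 after IRI in KO (SD, n = 3). The lowest KO library was at 4.18 and the highest WT library at 3.14.

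Nkg7, a membrane protein of cytotoxic granules needed for their efficient release, and Ctsw, a cysteine protease of the papain family found in cytotoxic lymphocytes, had the highest levels of the 10 genes in WT controls. Nkg7 read 65.0, 99.4 and 94.4 FPKM in controls and 12.6, 14.1 and 14.0 after IRI in WT, and 84.7, 52.3 and 53.7 in controls and 19.1, 8.88 and 14.3 after IRI in KO. Ctsw read 55.9, 50.8 and 70.1 FPKM in controls and 4.94, 4.22 and 11.1 after IRI in WT, and 60.1, 33.1 and 46.2 in controls and 9.81, 5.84 and 9.41 after IRI in KO. For both genes all IRI libraries were below all controls of either genotype. Nkg7 fell by 2.56 ± 0.28 on the log2 scale in WT (adjusted p = 0.00197, mean 6.37-fold lower) and by 2.12 ± 0.28 in KO (adjusted p = 0.00973, 4.50-fold lower). Ctsw fell by 3.04 ± 0.34 in WT (adjusted p = 0.00197, 8.74-fold lower) and by 2.33 ± 0.34 in KO (adjusted p = 0.0135, 5.56-fold lower). Between genotypes the values overlapped as deposited, with log2 differences for Nkg7 of −0.45 in controls and −0.00 after IRI, and for Ctsw of −0.36 and 0.35. After rescaling every KO control was below every WT control for both genes. The rescaled differences in controls were −0.78 ± 0.25 for Nkg7 (adjusted p = 0.292) and −0.70 ± 0.36 for Ctsw (adjusted p = 0.511), and neither passed. Without KO control 1, WT control 3 and WT IRI 3, Ctsw still passed in KO and Nkg7 did not. With 1 library left out, Nkg7 passed in KO in all 12 fits and Ctsw in 9. With only the groups compared, neither passed in KO. Fibp, which overlaps Ctsw on the other strand, was at 5.79 to 26.4 FPKM over the 12 libraries.

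Cst7, cystatin F, which inhibits the cathepsins that activate progranzymes, carried both differences at once. In WT it read 7.75, 8.40 and 9.70 FPKM in controls and 1.71, 1.62 and 1.89 after IRI. In KO it read 16.7, 11.2 and 15.3 FPKM in controls and 5.88, 6.02 and 5.10 after IRI. The 4 groups did not overlap and stood in the order KO control, WT control, KO IRI, WT IRI. Cst7 fell after IRI by 1.81 ± 0.17 on the log2 scale in WT (adjusted p = 0.00130, 4.95-fold lower mean) and by 1.20 ± 0.17 in KO (adjusted p = 0.0139, 2.55-fold lower). The fall in KO passed in 8 of the 12 fits that left out 1 library. It failed with a common sum, with only the groups compared, and without KO control 1, WT control 3 and WT IRI 3. After IRI Cst7 rose in KO against WT by 1.28 ± 0.17 (adjusted p = 0.0370, 3.25-fold higher mean). That call depended on the setting: rescaled, the difference was 1.06 ± 0.15 (adjusted p = 0.0536), and over all 23 alternatives the adjusted p ran from 0.00349 to 0.378. It also failed in 9 of the 12 fits that left out 1 library. In controls the difference between genotypes was 0.67 ± 0.17 (adjusted p = 0.192). Averaged over condition Cst7 rose in KO by 0.97 ± 0.12 (adjusted p = 0.00891), or by 0.71 ± 0.11 rescaled (adjusted p = 0.0297). With a common sum this call was lost (adjusted p = 0.272).

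Fasl, the ligand that triggers the death receptor Fas, can be held in secretory lysosomes until release. It read 31.5, 31.9 and 44.0 FPKM in controls and 30.3, 25.8 and 16.2 after IRI in WT, and 25.3, 25.1 and 20.5 in controls and 20.4, 19.0 and 12.9 after IRI in KO. Each KO control was below each WT control and each IRI library below each control of its genotype as deposited, by narrow margins. The highest IRI and lowest control values were 30.3 and 31.5 FPKM in WT and 20.4 and 20.5 in KO. After rescaling the KO control and KO IRI values overlapped. None of these differences passed: IRI against control was −0.58 ± 0.26 in WT (adjusted p = 0.266) and −0.44 ± 0.26 in KO (adjusted p = 0.484). KO against WT was −0.57 ± 0.26 in controls (adjusted p = 0.239) and −0.42 ± 0.26 after IRI (adjusted p = 0.343), and averaged over condition −0.50 ± 0.18 (adjusted p = 0.0811), or −0.80 ± 0.16 rescaled (adjusted p = 0.0530).

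The protective serpins were higher after IRI. Serpinb9, the mouse inhibitor of granzyme B, read 7.38, 7.001 and 6.34 FPKM in controls and 13.7, 10.01 and 10.2 after IRI in WT, and 11.7, 8.36 and 7.33 in controls and 15.8, 17.5 and 9.83 after IRI in KO. Serpinb6b, a related serpin that inhibits granzyme A, read 8.78, 8.87 and 9.28 FPKM in controls and 24.0, 17.0 and 14.9 after IRI in WT, and 7.48, 8.30 and 10.8 in controls and 25.4, 21.9 and 12.1 after IRI in KO. In WT every IRI library was above every control for both genes, and in KO this held for Serpinb6b. The mean of Serpinb9 was 1.64 times higher after IRI in WT and 1.57 times in KO, and that of Serpinb6b 2.08 and 2.23 times. Within 1 genotype the log2 differences did not pass as deposited, at 0.63 ± 0.24 (adjusted p = 0.190) and 0.59 ± 0.24 (adjusted p = 0.299) for Serpinb9. For Serpinb6b they were 0.95 ± 0.27 in WT (adjusted p = 0.0825) and 1.03 ± 0.27 in KO (adjusted p = 0.109), and the first passed after rescaling (1.01 ± 0.25, adjusted p = 0.0348). Averaged over genotype Serpinb9 rose by 0.61 ± 0.17 (adjusted p = 0.0483) and Serpinb6b by 0.99 ± 0.19 (adjusted p = 0.00983), and without KO control 1, WT control 3 and WT IRI 3, or with libraries set to a common sum, neither passed. The call for Serpinb9 was also lost with a pseudocount of 5, without the filter on low values, and in 10 of the 12 fits that left out 1 library, whereas Serpinb6b passed in all 12. The ratio of Serpinb9 to Gzmb in a library, again chosen after the values were seen, was 0.593 ± 0.240 in controls and 2.53 ± 1.142 after IRI in WT, and 0.144 ± 0.0328 in controls and 0.681 ± 0.460 after IRI in KO (SD, n = 3).

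**Figure D3:**
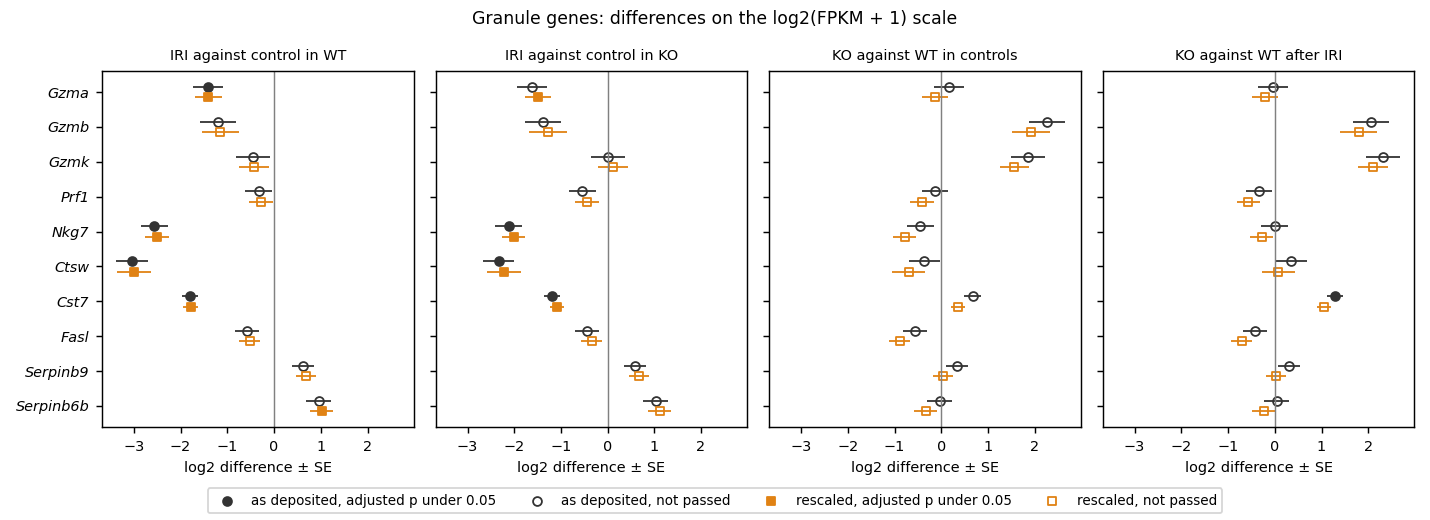
Log2 differences of the 10 genes with their standard errors in the 4 comparisons of 2 groups, as deposited and rescaled. Ctsw and Nkg7 lie farthest below 0 after IRI in both genotypes, and Gzmb and Gzmk lie farthest above 0 in KO against WT.

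Counted over the comparisons, 4 of the 10 genes (Gzma, Nkg7, Ctsw and Cst7) fell after IRI in WT and 0 rose, where 3.78% of all 19288 tested genes passed, 2.59% lower. The median log2 difference of the 10 was −0.889, against 0.000291 over all tested genes. In KO 3 of them (Nkg7, Ctsw and Cst7) fell and 0 rose, against 0.866% of all genes passing and 0.539% passing lower, with medians of −0.867 and −0.0194. That count was 1 without KO control 1, WT control 3 and WT IRI 3, and 1 without KO control 1, KO control 3 or KO IRI 2 alone. In controls 0 of 10 differed between genotypes, against 0.0259% of all genes, by limma, while 4 had an unadjusted p under 0.05, as did 20.9% of all genes. Without KO control 2 this count was 3 (Gzmb, Gzmk and Cst7). After IRI Cst7 alone passed between genotypes, against 0.057% of all genes, 0.0518% higher, and again Gzmb, Gzmk and Cst7 passed without KO control 2. Averaged over genotype 7 of 10 passed after IRI, 2 higher and 5 lower, against 9.04% of all genes (3.01% higher, 6.03% lower), and 5 without the 3 libraries. Averaged over condition 3 of 10 were higher in KO, against 13.7% of all genes passing, 11.9% higher as deposited and 0.378% rescaled, and 2 (Gzmb and Cst7) without the 3 libraries. After rescaling 5 of 10 passed after IRI in WT (7.94% of all genes), 4 in KO (2.06%), 0 between genotypes in controls (0.0363%) and 0 after IRI (0.057%), 7 for IRI averaged over genotype (13.7%), and 3 for genotype averaged over condition (0.55%). No inference is drawn from these counts, since the genes were chosen with such results known.

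The groups did not overlap for 9 of the 10 genes after IRI in WT (2 higher, 7 lower), where 9.28% of all genes had non-overlapping groups with IRI higher and 14.4% with IRI lower. In KO this held for 7 (1 higher, 6 lower), against 8.21% and 9.15% of all genes. Between genotypes it held in controls for 3 higher in KO and 1 lower, against 20.1% and 3.69% of all genes, and after IRI for 3 and 1, against 24.9% and 7.49%. These counts are as deposited. After rescaling, Prf1, Nkg7, Ctsw and Serpinb6b, beside Fasl, were lower in all KO controls than in all WT controls, and Fasl also after IRI. The WT groups of Gzmb and Prf1 and the KO groups of Fasl then overlapped, and the KO groups of Serpinb9 did not. The share of all genes without overlap was not counted after rescaling.

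Whether the response to IRI differed with genotype was tested by the interaction of both terms. None of the 10 genes passed, with an adjusted p of 0.999 for each as deposited, where 0.00518% of all genes passed. Cst7 had the only unadjusted p under 0.05 among the 10 (0.0311), where 3.35% of all genes had one, with a log2 fall that was 0.61 ± 0.25 smaller in KO. A test that misses the threshold does not show that the 2 responses are alike. The comparisons that share a group, such as both contrasts that use WT control, share its libraries.

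**Figure D4:**
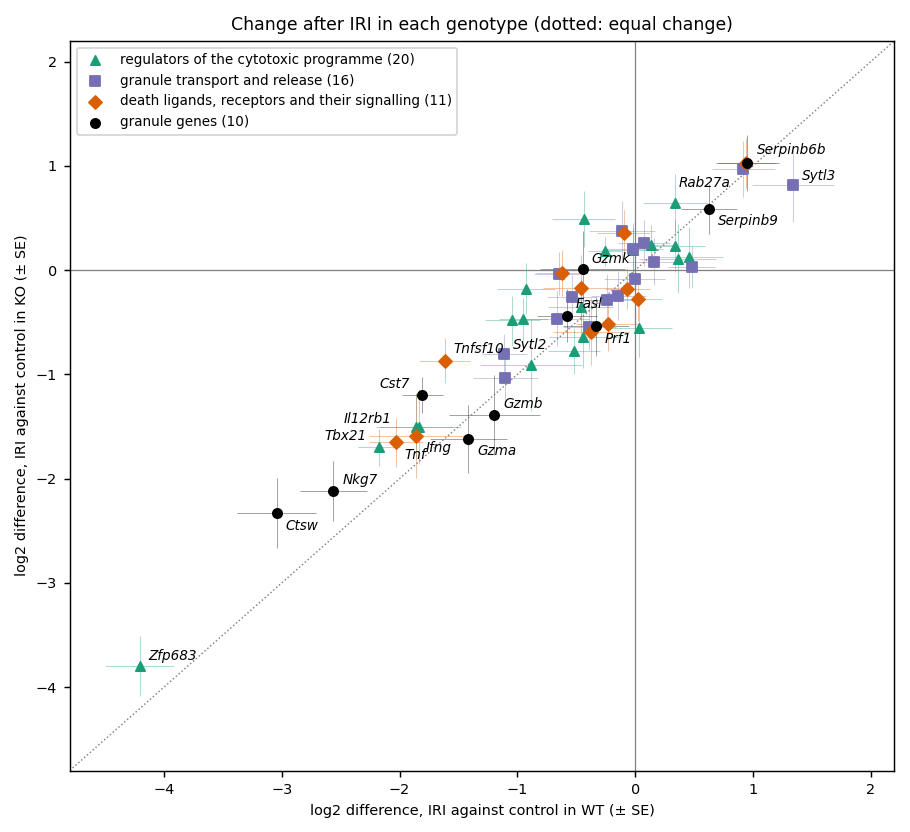
Log2 difference between IRI and control in KO (vertical) against that in WT (horizontal) for the 10 genes and the other gene lists, with the line of equal values. Ctsw, Nkg7 and Cst7 lie above the line on the falling side, and Serpinb6b and Serpinb9 are above 0 in both genotypes.

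Among the 10 genes, the Pearson correlation of log2(FPKM + 1) over the 12 libraries, which share their library scale and the group structure, described the same division. It was 0.966 for Nkg7 with Ctsw, 0.919 for Gzma with Nkg7 and 0.913 for Gzma with Ctsw. Gzmb and Gzmk had 0.762, and Gzmk had 0.0130 with Nkg7. Prf1 was at 0.639 with Gzma, 0.0894 with Gzmb and −0.213 with Gzmk. Serpinb6b was at −0.872 with Ctsw and −0.852 with Nkg7, and at 0.786 with Serpinb9.

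The protein-coding genes most like each member over the 12 libraries were also sought by Pearson correlation. Nkg7 was closest to Zfp683, which encodes the residency factor Hobit (r = 0.980), and to Tbx21 (r = 0.979), in that order also after rescaling. Ctsw was closest to Eya2 (0.982) and St3gal6 (0.981), and Cst7 to Epsti1 (0.990) and the T cell receptor subunit Cd3g (0.987), pairs whose order was swapped by rescaling. Gzma was closest to the B cell gene Ms4a1 (0.971), Gzmb to Angptl2 (0.965) and Acaa1a (0.956), and Gzmk to Ints14 (0.969) and Ppp2r5c (0.968). For Prf1 these were Gsap (0.894) and B4galt5 (0.838), and for Fasl, Garnl3 (0.892) and Fgl2 (0.883). Serpinb9 was closest to C87436 (0.928) and Psd (0.925), and Serpinb6b to Zdhhc23 (0.938) and Tnfrsf9 (0.930). After rescaling the first-ranked gene was another one for Gzmk (Def6, 0.942), Serpinb9 (Acod1, 0.947) and Serpinb6b (Fbxl20, 0.942).

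The B cell gene at the head of the Gzma list had its own values beside Gzma. The 5 B cell markers summed to 8.71 to 45.9 FPKM in controls and 4.18 to 13.5 after IRI in WT, and 20.5 to 80.7 in controls and 3.95 to 7.77 after IRI in KO. KO control 1 held both the highest Gzma value and the highest B cell sum. It also held the highest sums of CD8 T cell, NK cell and ILC1, macrophage and monocyte, plasmacytoid dendritic cell, and mast cell and basophil markers. Its median ratio was the largest as well, at 1.34. The CD4 T cell, gamma-delta T cell, NKT cell, neutrophil and tubule sums were highest in other libraries. The part of other cells in the Gzma values was not tested.

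Of 20 regulators of the cytotoxic programme, from a list written with earlier results known, 6 fell after IRI in WT and 0 rose, with a median log2 difference of −0.451. Zfp683 fell by 4.21 ± 0.29 on the log2 scale in WT (adjusted p = 0.000462), from 53.3, 53.2 and 47.3 FPKM to 1.51, 1.22 and 3.06. Tbx21, the T-box factor of Th1 and cytotoxic cells, fell by 2.18 ± 0.18 (adjusted p = 0.000629). The interleukin 12 receptor chain Il12rb1 fell by 1.86 ± 0.31 (adjusted p = 0.0111) and Zbtb7b, the factor that sets CD4 lineage, fell by 1.84 ± 0.36 (adjusted p = 0.0214). In KO 2 of the 20 fell, Zfp683 by 3.80 ± 0.29 (adjusted p = 0.000656) and Tbx21 by 1.70 ± 0.18 (adjusted p = 0.00405). Between genotypes 0 of 20 passed in controls by limma, and the 4 with an unadjusted p under 0.05 are a share near the 20.9% of all genes. Rescaled, 8 had one in controls, as did 2129 of all 19288 genes. After IRI 0 passed, and 8 had an unadjusted p under 0.05, as did 4324 of all genes. Averaged over condition 5 passed higher in KO and 1 lower, against 2299 and 340 of all genes. Rescaled, these were 0 and 1, against 73 and 33.

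Of 11 death ligands, receptors and their signalling genes, 3 fell after IRI in WT and 0 rose. The cytokine Tnf fell by 2.03 ± 0.23 (adjusted p = 0.00197), from 25.7, 25.5 and 28.4 FPKM to 7.15, 5.99 and 4.32. The death ligand Tnfsf10 fell by 1.62 ± 0.22 (adjusted p = 0.00434) and the cytokine Ifng by 1.86 ± 0.40 (adjusted p = 0.0322). In KO Tnf alone fell, by 1.65 ± 0.23 (adjusted p = 0.0111). Fas, the receptor of Fasl, had a log2 difference of 0.94 ± 0.24 in WT (adjusted p = 0.0609), and it rose by 0.99 ± 0.17 averaged over genotype (adjusted p = 0.00581).

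The machinery that stores and releases granules was counted in the same way. Of 10 granule matrix and maturation genes, Calr, a chaperone that binds perforin, fell after IRI in WT by 0.91 ± 0.17 (adjusted p = 0.0177), and none passed in KO. Averaged over genotype 2 of these 10 rose and 1 fell, against 3.01% and 6.03% of all genes. Of 16 tested transport and release genes, Sytl2 fell in WT by 1.11 ± 0.19 (adjusted p = 0.0121) and none passed in KO. Averaged over genotype both directions were found in that list: Rab27a, which docks granules at the membrane, rose by 0.94 ± 0.19 (adjusted p = 0.0122) and Sytl3 by 1.08 ± 0.25 (adjusted p = 0.0227). Unc13d, which primes granules for fusion, fell by 1.07 ± 0.19 (adjusted p = 0.00758) and Sytl2 by 0.96 ± 0.14 (adjusted p = 0.00203). Between genotypes, averaged over condition, 7 of the 10 matrix and maturation genes and 4 of the 16 transport genes passed higher in KO. As deposited 11.9% of all genes did. Rescaled, 0 of either list passed higher, against 0.378%, and 1 transport gene passed lower. No other granzyme was well expressed. Of 7, only Gzmm passed the filter on low values, at 0.129 to 2.04 FPKM, and it passed no test, while Gzmc, Gzmd, Gzme, Gzmf, Gzmg and Gzmn stayed at or below 0.773 FPKM. Of 14 other protease inhibitors 4 were tested, and Cst3, cystatin C, fell after IRI in WT by 1.47 ± 0.34 (adjusted p = 0.0408).

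Markers of cell types that carry granules were set beside these values. The 11 NK cell and ILC1 markers summed to 45.7 to 74.8 FPKM in controls and 37.9 to 70.7 after IRI in WT, and 63.4 to 131 in controls and 33.2 to 79.6 after IRI in KO, and 0 of the 7 tested passed after IRI in either genotype as deposited. Rescaled, Ncr1 passed lower in both (−1.46 ± 0.36 in WT, adjusted p = 0.0331, and −1.70 ± 0.36 in KO, adjusted p = 0.0415). As deposited and averaged over genotype, Ncr1 (−1.64 ± 0.28, adjusted p = 0.00507) and Eomes (−0.65 ± 0.16, adjusted p = 0.0282) fell. Ncr1, which defines NK cells and ILC1, was at 3.61, 1.79 and 1.33 FPKM in controls and 0.276, 0.0470 and 0.174 after IRI in WT, and 7.22, 2.12 and 2.92 in controls and 0.183, 0.495 and 0.174 after IRI in KO. Klra4, Klra7 and Klra8, receptors of NK cells, were listed at 0 in 1, 2 and 4 of the 12 libraries and at most at 1.09 FPKM in the others. The 6 gamma-delta T cell markers summed to 31.0 to 62.2, 10.3 to 18.5, 21.2 to 35.4 and 7.70 to 11.1 FPKM in that order, and Tcrg-C1 and Tcrg-C4 fell in WT. Of 8 CD4 T cell markers 4 fell in WT, Cd3g by 2.15 ± 0.21 (adjusted p = 0.00139) and Cd3e by 1.26 ± 0.19 (adjusted p = 0.00690) among them, and Cd3g also fell in KO by 1.37 ± 0.21 (adjusted p = 0.0191). Cd8b1 fell in KO by 1.17 ± 0.21 (adjusted p = 0.0388). Cd4 itself was higher in KO by 1.49 ± 0.29 in controls (adjusted p = 0.130) and 1.75 ± 0.29 after IRI (adjusted p = 0.0625), without passing. Averaged over condition, 6 of 8 CD4 and 1 of 2 CD8 T cell markers passed higher in KO, against 11.9% of all genes. Rescaled, 2 and 0 did, against 0.378%. On both scales 1 of 4 tested gamma-delta T cell, 1 of 7 NK cell and ILC1 and 1 of 2 NKT cell markers passed lower. Of all 19288 genes, 340 passed lower as deposited and 33 rescaled. The other marker lists held no gene that passed there. The 6 macrophage and monocyte markers summed to 63.2 to 136 FPKM in controls and 72.9 to 81.4 after IRI in WT, and 125 to 279 in controls and 53.2 to 125 after IRI in KO. The 5 markers of plasmacytoid dendritic cells were at 40.1 to 45.9, 22.2 to 27.1, 47.0 to 74.7 and 22.5 to 34.7 FPKM in that order. Of these 5, Bst2, Ccr9 and Irf8 fell after IRI in WT and averaged over genotype, and Irf8 fell in KO. The others did not pass, and log2 differences above 0 were found for 2 of the 5 in WT, 0 in KO and 1 averaged over genotype. Over the 12 libraries the 2 NKT cell markers summed to 7.46 to 35.8 FPKM, the 6 mast cell and basophil markers to 0.433 to 3.49 and the 5 tubule markers to 0.442 to 193. The 8 neutrophil markers summed to 17.3 to 23.1 FPKM in controls and 18.3 to 40.9 after IRI in WT, and 12.4 to 16.3 in controls and 4.30 to 35.0 after IRI in KO, and they moved in both directions. S100a8 rose in WT by 3.14 ± 0.61 (adjusted p = 0.0204), from 0, 0.938 and 0 FPKM to 13.8, 9.69 and 7.37, and S100a8, S100a9 and Retnlg rose averaged over genotype. Mmp9 fell in WT by 2.15 ± 0.25 (adjusted p = 0.00219) and in KO fell by 2.27 ± 0.25 (adjusted p = 0.00491). Averaged over genotype 3 of 5 B cell, 3 of 4 tested gamma-delta T cell and 2 of 6 macrophage and monocyte markers also fell. The part of these markers in the values of the granule genes was not tested.

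**Figure D5:**
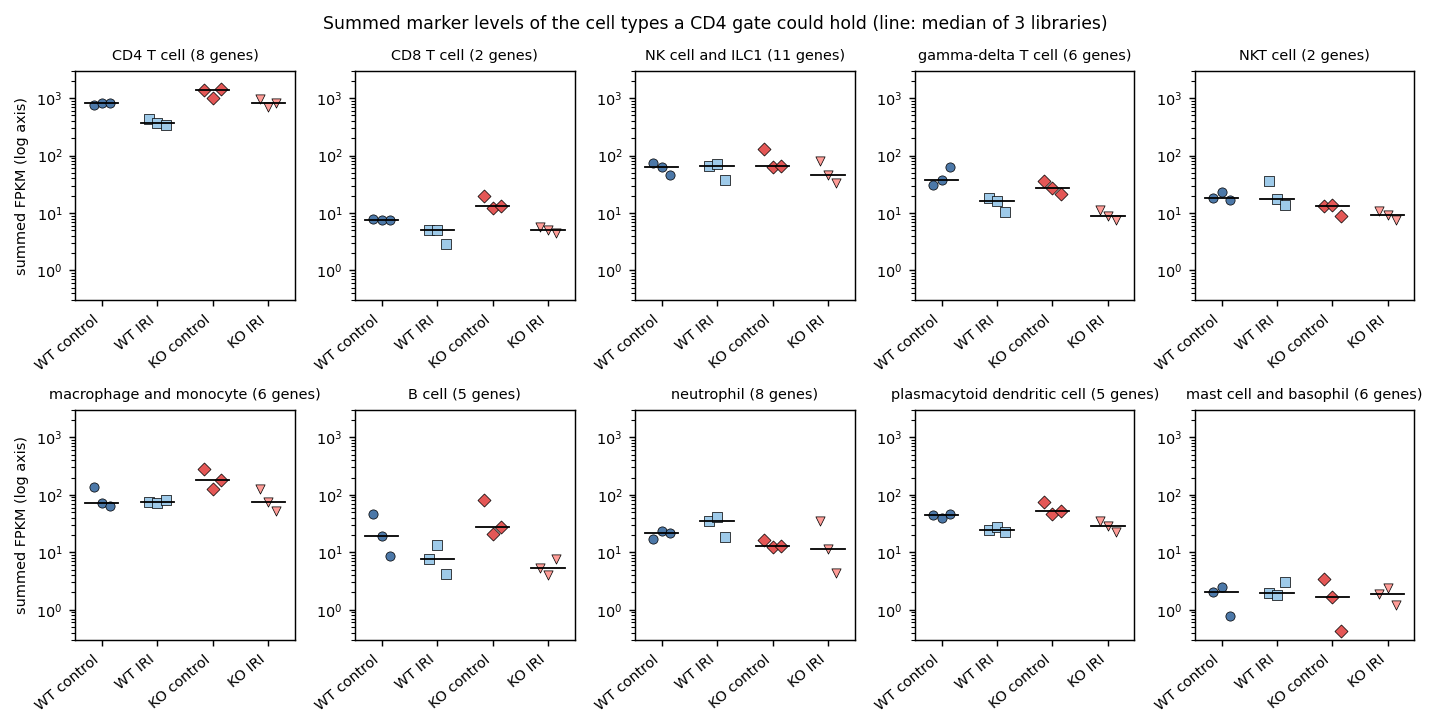
Summed FPKM of marker lists of other cell types and of CD4 T cells in each library (log axis), by group. CD4 T cell markers stand at 345 to 1457 FPKM, and the NK cell and ILC1 sums of the 4 groups overlap.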

How the data were processed

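RNA of CD4 T cells sorted from mouse kidneys was sequenced in 12 libraries, 3 in each of 4 groups, with paired reads after a stranded total RNA kit for small inputs, per the labels' protocols. The authors deposited 1 table of FPKM, per the file headers and labels. Per the submitters' processing notes the tools were Cufflinks 2.2.1, TopHat2 2.1.0, Partek 7.0 and bcl2fastq 2.17.1.14 and the build GRCm38, with no role given. The annotation release, strand setting and scaling between libraries are not given in the sources used here, and FPKM keeps no depth, so no counting error is attached. Coordinates come from GENCODE M21 (GRCm38), and symbols matched 52399 of 52632 gene IDs.

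The members and lists were chosen with earlier results of these data known. Without further scaling, the 19288 genes that averaged 1 FPKM or more entered limma 3.58.1 in R 4.3.3 (trend, 1 mean per group, 8 residual degrees of freedom) on log2(FPKM + 1), which understates differences of low genes, and p-values were adjusted by Benjamini-Hochberg over all tested genes within each of 7 comparisons (threshold 0.05). Each adjusted p in the text is from this fit, except where rescaling, another setting or left-out libraries are named beside it. Rescaling used median ratios over 16018 genes above 0 in all libraries. Genes outside the 10 were named as up to 4 members of a list with the smallest adjusted p that passed in a comparison, the 2 most correlated protein-coding genes of each member, and markers and overlapping genes, for their values. One gene that this rule names is not reported here. The alternatives were other scalings, pseudocounts and filters, only the groups compared, a replicate block, array weights, and leaving out libraries.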

Additional observations from a re-analysis of the deposited data

How the results depend on the processing

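The number of the 10 granule genes past the threshold was recomputed under 11 alternatives and with each library left out. After IRI in WT the 4 became 7 with array weights, 5 rescaled or quantile normalized, 3 (without Gzma) with a common sum, a pseudocount of 5, no filter or a mean of at least 5 FPKM, and 3 to 4 with 1 library left out. Nkg7, Ctsw and Cst7 passed there under all 23 alternatives run. After IRI in KO the 3 became 1 when libraries were set to a common sum, 0 with only the groups compared, 1 without KO control 1, WT control 3 and WT IRI 3, and 7 with array weights, and 1 to 4 with 1 library left out. Between genotypes in controls the 0 became 4 with array weights and 0 to 3 with 1 library left out. After IRI the 1 became 0 after median ratio rescaling, with a common sum, a pseudocount of 5, no filter, only the groups compared, the replicate block, or without the 3 libraries, and 3 with a mean of at least 5 FPKM or array weights, and 0 to 3 with 1 library left out. For averages, a common sum gave 4 in place of 7 for IRI and 1 (Gzmk) in place of 3 for genotype. With 1 library left out the counts were 6 to 7 and 3. The replicate block changed no other call among the 10. The labels do not say that numbers pair libraries, and only 1 of 18 same-numbered pairs deviated together at a correlation over 0.1, while 7 of 12 libraries correlated best with their own number.

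Signs turned only for differences that had not passed. For Gzmk after IRI in KO the log2 difference was −0.38 with a common sum and −0.12 with array weights (−0.24 to 0.18 leaving out 1 library). In controls, KO against WT, Gzma was −0.13 rescaled, −0.0869 quantile normalized, −0.0607 with a common sum, −0.35 without the 3 libraries and −0.0211 with array weights (−0.28 to 0.46), Prf1 was 0.14 with array weights (−0.29 to 0.13), and Serpinb6b was 0.0912 without the 3 libraries and 0.16 with array weights (−0.17 to 0.0694). After IRI, Gzma was 0.0293 quantile normalized (−0.12 to 0.00846), Nkg7 0.00801 with a pseudocount of 5 and 0.0191 without the 3 libraries (−0.24 to 0.27), Ctsw −0.27 with a common sum, Serpinb9 −0.0332 quantile normalized and −0.34 with a common sum. Serpinb6b was −0.24 rescaled, −0.33 quantile normalized, −0.61 with a common sum, −0.0944 without the 3 libraries and −0.0462 with array weights (−0.16 to 0.35). The cause of these changes was not tested. A mean of at least 5 FPKM leaves Gzma and Prf1 out.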
